A study of Mus musculus with 69 samples.

Results

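Angiotensinogen (Agt) and 3 other genes of the renin-angiotensin system, Ace, Agtr1a and Agtrap, were followed in the hearts of mice exposed to cyanide. Members were the probe sets annotated to these 4 symbols alone, and the 4 genes, chosen by their measured difference between each cyanide group and its control, stand among 17097 genes with a probe set of a single symbol. They are read by 5 of the 45141 probe sets of the array. All 5 passed the filter on low values, which required at least 1 group mean above the median of all group means (3.23 on the log2 scale) and kept 26773 probe sets. Because these contrasts chose the members, they are given for them as sizes with standard errors (SE) and without a test.

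Angiotensinogen is the protein from which renin cuts angiotensin I. Angiotensin-converting enzyme then makes angiotensin II, which acts through the type 1 receptor to constrict vessels, to release aldosterone and, in the heart, to promote growth of myocytes and deposition of matrix. Most circulating angiotensinogen comes from the liver, but the heart and the fat around vessels also transcribe the gene.

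RNA of whole hearts from adult male CD-1 mice was hybridised to Affymetrix expression arrays. Potassium cyanide (KCN) was given at 8.0 mg/kg under the skin, and hearts were taken after 1, 2, 4, 8 and 24 h, with mice injected with saline as controls at each time. Hydrogen cyanide (HCN) was breathed nose-only at 327 ppm, and hearts were taken after 1, 2, 4 and 24 h, with mice breathing air as controls. Each of the 18 groups held 4 arrays, except KCN 4 h, saline 2 h and saline 4 h with 3 each, 69 arrays in all, 37 in the injection arm and 32 in the inhalation arm. Values are the log2 signals that the authors deposited. The routes differed in overall distribution, with a median 95th percentile per array of 9.52 in the inhalation arrays and 9.24 in the injection arrays, so levels were compared only within a route. The labels number the arrays of a group as biological replicates without naming the animal, and p-values measure the spread between these arrays.

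Of 5 markers of ventricular muscle 4 were measured, and their mean level lay between 13.14 and 13.50 in cyanide arrays and between 13.25 and 13.53 in control arrays, near the top of the range of the array (1.83 to 13.94). Markers of other tissues varied from array to array. The mean of the airway transcripts Scgb1a1 and Bpifa1 ran from 2.88 to 12.64 in cyanide arrays and from 2.71 to 12.53 in control arrays. The mean of 4 measured adipocyte markers (Adipoq, Retn, Lep and Ucp1, of 7 listed) ran from 3.67 to 8.34 in cyanide arrays and from 3.49 to 8.42 in control arrays. Arrays also differed in RNA quality, measured as the log2 signal of the actin control at the 3' end minus that at the 5' end (the actin ratio), which was 1.22 ± 0.61 (SD, n = 4) at HCN 2 h against 0.453 ± 0.143 in air.

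The sequence upstream of Agt is shown because Agt is the member whose signal differed most between cyanide and control hearts. It covers the 250 bases before the start of the transcript at chr8:124569707-124569956 on the minus strand (RefSeq, GRCm38.p6), with the TATA box TATAAA in capitals.
Agt promoter: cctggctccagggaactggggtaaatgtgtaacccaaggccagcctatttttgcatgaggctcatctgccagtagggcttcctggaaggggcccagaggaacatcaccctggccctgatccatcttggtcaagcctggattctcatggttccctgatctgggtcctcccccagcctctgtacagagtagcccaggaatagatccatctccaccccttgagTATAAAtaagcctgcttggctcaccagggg
The capitals begin at position -30 relative to the start and lie on the strand of the gene. TATAAA was found on either strand in 13.6% of 32851 mouse promoter windows of the same kind, each running from 250 bases before to 50 bases after a start. A glucocorticoid receptor half-site (AGAACA, in 19% of the windows), an AP-1 site (TGANTCA, in 7.81%) and a C/EBP site (TTGCNNAA, in 10.8%) were searched for on both strands, and none of these letters occurs in the Agt window, which says nothing about binding elsewhere. Of the other members, Agtr1a has no entry in the promoter table used here.

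Agt was higher in cyanide hearts by both routes. At 2, 4 and 24 h the difference was larger after HCN than after KCN, while at 1 h the routes differed by less than the error and the KCN 8 h difference exceeded those at HCN 1 h and 24 h. At HCN 1 h it exceeded air by 1.43 ± 0.32 (log2 difference ± SE, n = 4 against 4 at each HCN time), at HCN 2 h by 2.19 ± 0.32, at HCN 4 h by 2.64 ± 0.32 and at HCN 24 h by 1.64 ± 0.32. On a linear scale these are ratios of 2.69, 4.56, 6.22 and 3.12. At KCN 1 h it exceeded saline by 1.29 ± 0.32, at KCN 2 h by 1.43 ± 0.34 (n = 4 against 3), at KCN 4 h by 1.34 ± 0.37 (n = 3 against 3), at KCN 8 h by 1.74 ± 0.32 and at KCN 24 h by 0.53 ± 0.32 (n = 4 against 4 otherwise), which are ratios of 2.44, 2.69, 2.53, 3.35 and 1.44. In RNA of whole hearts, more cells of a type and more RNA per cell cannot be told apart.

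The signal of Agt (probe set 1423396_PM_at) in single arrays shows how far the groups stood apart. At HCN 1 h it was 7.44, 6.74, 7.60 and 7.31, against 5.57, 5.84, 5.96 and 6.0 in air. At HCN 2 h it was 7.80, 7.07, 8.17 and 7.71, against 5.57, 5.99, 5.63 and 4.80 in air. Every HCN array lay above every air array at both times. At HCN 4 h the signal was 8.66, 8.38, 8.41 and 8.73, against 5.59, 5.81, 6.26 and 5.99 in air. At HCN 24 h it was 6.76, 6.74, 7.34 and 7.12, against 5.26, 5.64, 5.09 and 5.40 in air. The 4 h arrays held the 4 highest Agt signals of the inhalation arm, and the 24 h arrays were still clear of their air controls.

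After KCN the arrays of a group were less alike. At 1 h the signal was 6.21, 7.06, 6.27 and 5.38 in KCN hearts, against 4.71, 5.20, 4.81 and 5.07 in saline hearts. At 2 h it was 7.91, 5.15, 7.06 and 6.20 in KCN hearts, against 5.31, 5.14 and 5.01 in saline hearts. The groups did not overlap at 1 h, while at 2 h KCN replicate 2 lay among the saline arrays and the other 3 above them. At 4 h the signal was 5.92, 6.35 and 5.28 in KCN hearts, against 4.70, 4.46 and 4.37 in saline hearts. At 8 h it was 6.81, 6.88, 6.34 and 6.81 in KCN hearts, against 4.23, 5.50, 5.40 and 4.74 in saline hearts. Neither pair of groups overlapped. At 24 h it was 5.64, 4.76, 4.78 and 4.72 in KCN hearts, against 4.11, 4.38, 4.68 and 4.63 in saline hearts, so that 3 of the KCN arrays lay just above the highest saline array and replicate 1 well above it. Without KCN replicate 1 the 24 h difference was 0.30 instead of 0.53.

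**Figure D1:**
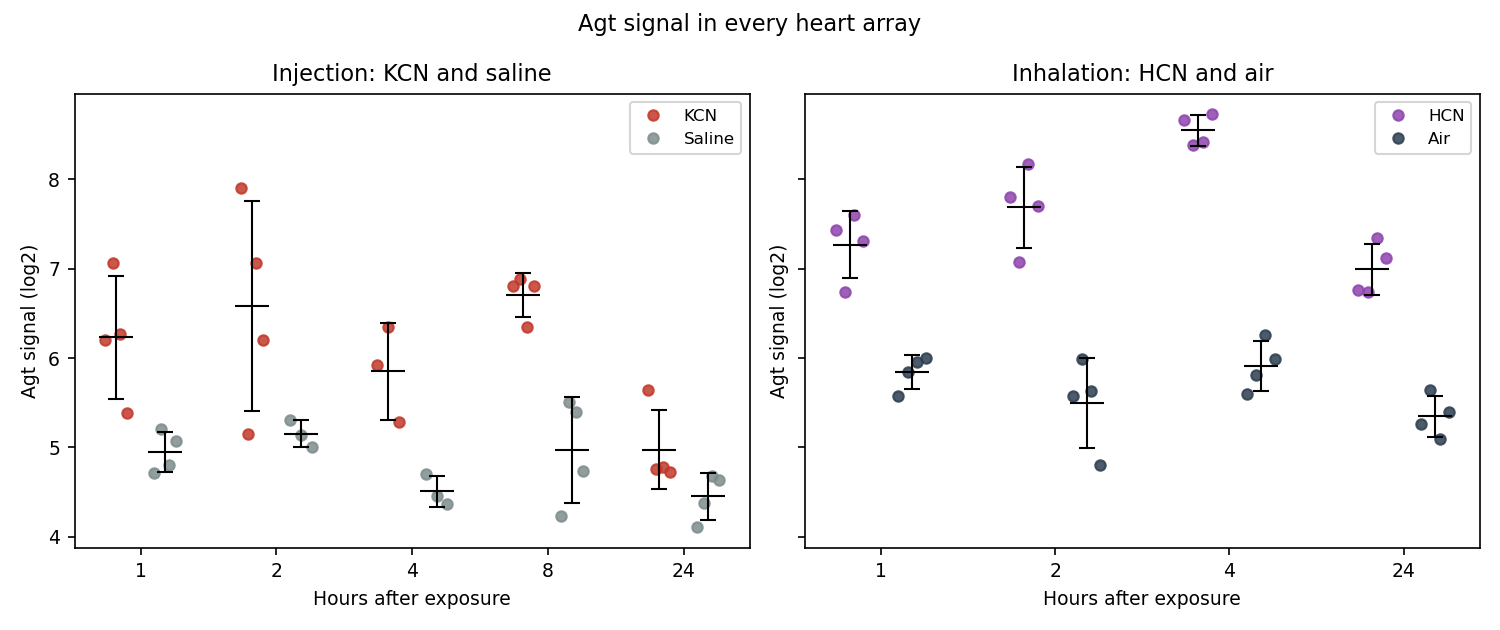
Agt signal (log2) of each array by hours after exposure, with KCN and saline on the left and HCN and air on the right. Points are arrays and bars are the group mean ± SD; HCN arrays lie between 6.74 and 8.73 and air arrays between 4.80 and 6.26, while 1 KCN 2 h array (5.15) lies among the saline arrays.

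In order of mean level, the inhalation groups ran from HCN 4 h (8.55 ± 0.17, SD) through HCN 2 h (7.69 ± 0.46), HCN 1 h (7.27 ± 0.38) and HCN 24 h (6.99 ± 0.29) to the 4 air groups (5.91 to 5.35). Among neighbours in this order, only HCN 4 h and HCN 2 h, and HCN 24 h and air 4 h, did not overlap. In the injection arm the order was KCN 8 h (6.71 ± 0.25), KCN 2 h (6.58 ± 1.18), KCN 1 h (6.23 ± 0.69) and KCN 4 h (5.85 ± 0.54), followed by saline 2 h (5.15 ± 0.15) and KCN 24 h (4.97 ± 0.45). The other saline groups came last, at 4.97 to 4.45. Of the 9 pairs of neighbours in that arm 1 did not overlap, saline 1 h (4.95 ± 0.23) and saline 4 h (4.51 ± 0.17).

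Among the 26773 probe sets the Agt difference ranked 72, 18, 10 and 6 from the largest rise at HCN 1, 2, 4 and 24 h, and 130, 142, 90, 24 and 1372 at KCN 1, 2, 4, 8 and 24 h. Of the 5 member probe sets, the model across all probe sets (limma, adjusted p under 0.05) called Agt higher in 8 of the 9 comparisons, Ace at HCN 2 h and Agtrap probe set 1 at KCN 24 h, and none lower. Beside these counts, the share of all probe sets called higher was 1.38% at HCN 1 h, 8.79% at HCN 2 h, 2.87% at HCN 4 h, 5.08% at HCN 24 h, and 1.57%, 3.29%, 1.21%, 0.138% and 6.79% at KCN 1, 2, 4, 8 and 24 h. The share with every cyanide array above every control array was 4.14%, 7.23%, 5.09% and 9.09% for HCN in order of time and 6.53%, 7.39%, 10.3%, 2.27% and 12.2% for KCN. Since these contrasts chose the members, nothing is read from the counts. The same holds for the fits that follow, which show how each call moved and are no support for a difference. The HCN calls of Agt were made in all alternative fits across probe sets, while those after KCN were not. At KCN 4 h Agt was not called in 5 of the 6 fits that left out 1 array (all except that without KCN replicate 3), nor in 4 of 12 other fits, among them that with the actin ratio as a covariate. It was not called at KCN 1 h without KCN replicate 2, at KCN 2 h without KCN replicate 1, or at KCN 8 h without KCN replicate 2 or saline replicate 1, nor at KCN 2 h and 8 h when only the 2 groups compared were fitted, nor at KCN 8 h when each route was fitted alone.

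The HCN difference exceeded the KCN difference by 0.14 ± 0.45 (1 h), 0.76 ± 0.47 (2 h), 1.30 ± 0.49 (4 h) and 1.12 ± 0.45 (24 h). Averaged over times, Agt was higher by 1.97 ± 0.16 after HCN (4 times) and by 1.26 ± 0.15 after KCN (5 times). The KCN average includes 8 h, its largest difference, which has no HCN group. Doses by the 2 routes are given in different units, so the comparison is of these exposures and not of equal amounts of cyanide.

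The control groups were not contrasted with each other to choose the members, so their change over time was tested. Group means of Agt lay between 4.45 and 5.15 in saline and between 5.35 and 5.91 in air, and neither series passed the test (limma F test, adjusted p = 0.278 in saline, n = 18 arrays, and adjusted p = 0.414 in air, n = 16). In these tests 38.3% of all probe sets were called in saline and 16.7% in air. The saline means of Agt spanned 0.70, more than those of Agtr1a (0.64), which passed, with its lowest mean at 2 h (7.25) and its highest at 24 h (7.90; adjusted p = 0.00144). In air it ran from 7.60 at 1 h to 7.94 at 24 h (adjusted p = 0.0838). Agtrap probe set 1 varied in air, from 5.61 at 1 h to 6.18 at 4 h (adjusted p = 0.0354), a call that was lost when the air groups were fitted alone (adjusted p = 0.0904) or without single arrays of air 1 h (replicate 3 or 4) or air 4 h (replicate 1, 3 or 4), and probe set 2 did not pass in air (adjusted p = 0.191). Ace missed the threshold in saline (adjusted p = 0.166) and air (adjusted p = 0.0631). Hours since exposure and time of day cannot be told apart here. The actin ratio also varied between the saline groups, with means from 0.422 at 2 h to 0.878 at 24 h. No check of the Agtr1a call against it is given here.

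Ace, the converting enzyme that forms angiotensin II and also degrades bradykinin, was read near the filter, with a mean of 3.97 over all arrays. At HCN 2 h its signal was 4.63, 4.42, 4.35 and 4.04, against 4.07, 4.00, 3.52 and 3.89 in air. At HCN 24 h it was 4.10, 4.06, 3.67 and 3.83, against 3.59, 3.59, 3.82 and 3.43 in air. In both comparisons 3 of 4 HCN arrays lay above all air arrays, and the differences were 0.49 ± 0.18 and 0.30 ± 0.18. At HCN 1 h and 4 h the differences were 0.16 ± 0.18 and 0.00 ± 0.18. At KCN 8 h Ace was 3.70, 4.46, 4.13 and 4.26, against 3.48, 3.66, 3.98 and 3.77 in saline, a difference of 0.41 ± 0.18. At KCN 24 h it was 3.72, 3.97, 3.86 and 3.77, against 3.70, 3.40, 3.71 and 3.43 in saline, where the groups did not overlap and the difference was 0.27 ± 0.18. At KCN 1, 2 and 4 h it differed by 0.03 ± 0.18, 0.10 ± 0.19 and 0.04 ± 0.21.

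Agtr1a, the type 1 angiotensin II receptor of vessels and myocytes in mice, was read at 7.69 on average. At KCN 1 h it was 7.96, 7.64, 7.65 and 7.75, against 7.45, 7.52, 7.39 and 7.54 in saline. At HCN 1 h it was 8.02, 7.73, 7.80 and 8.01, against 7.67, 7.72, 7.28 and 7.73 in air. Both 1 h cyanide groups lay above their controls, by 0.27 ± 0.13 for KCN and 0.29 ± 0.13 for HCN. The gap at HCN 1 h was narrow, from 7.731 in the highest air array to 7.734 in the lowest HCN array. Air replicate 3 (7.28) stood far below the other air arrays and adds to the difference. Of all probe sets, 6.53% at KCN 1 h and 4.14% at HCN 1 h lay wholly above their controls. At HCN 4 h it was 7.50, 7.46, 7.59 and 7.50 in HCN hearts, against 7.79, 7.59, 7.66 and 7.60 in air hearts (difference -0.15 ± 0.13). The highest HCN array (7.587) lay just below the lowest air array (7.593), and the fall ranked 8062 among 26773 probe sets. How many of all probe sets lay wholly below their controls was not counted, and no direction is read from this. At the other times the groups overlapped and the differences lay between -0.17 and 0.19.

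Agtrap, a membrane protein that binds the type 1 receptor and promotes its uptake from the cell surface, has 2 probe sets, which did not move together. At KCN 24 h probe set 1 (1422965_PM_at) read 5.67, 5.63, 5.81 and 5.87, against 5.29, 5.25, 5.16 and 5.16 in saline. Probe set 2 (1460596_PM_at) read 5.33, 5.12, 5.40 and 5.34 in the same KCN hearts, against 5.36, 5.30, 5.19 and 5.32 in saline. The first set was higher by 0.53 ± 0.16 with no overlap, while the second differed by 0.00 ± 0.15. At HCN 24 h the order turned, with a difference of -0.18 ± 0.16 on probe set 1 and of 0.37 ± 0.15 on probe set 2. In the other comparisons the groups overlapped on both sets, with differences between -0.14 and 0.36 on probe set 1 and between -0.29 and 0.14 on probe set 2.

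**Figure D2:**
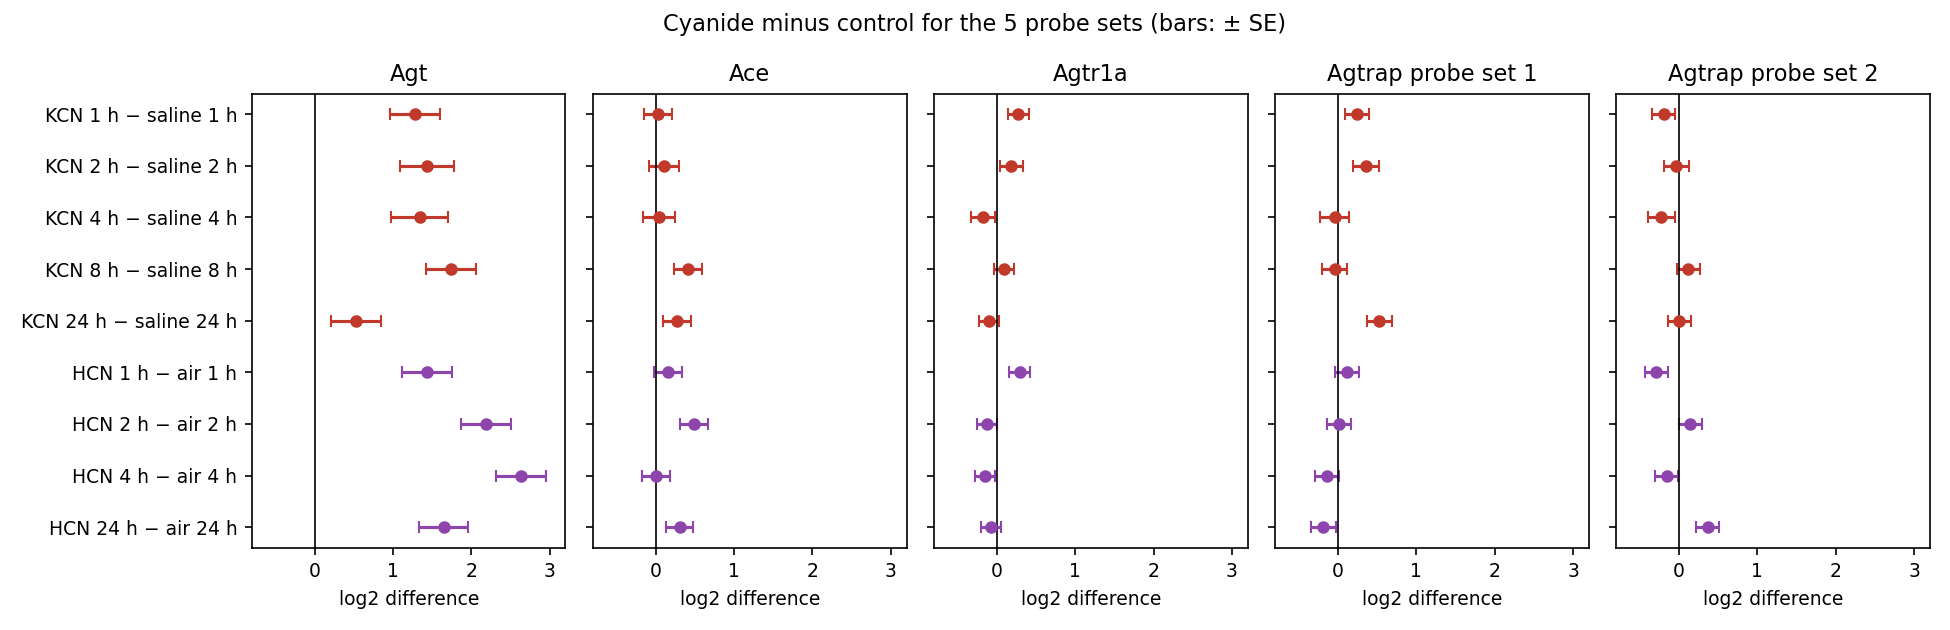
Log2 difference of each cyanide group from its control of the same route and time for the 5 member probe sets, with KCN above HCN. Points are limma estimates and bars are ± SE; Agt lies between 0.53 and 2.64, while every other member probe set stays between -0.29 and 0.53.

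Genes whose pattern was most like that of Agt were ranked in 2 ways, as a description. Over the 18 group means, each minus the mean of its route, the highest Pearson correlations were those of Gprc5b (0.89), Dicer1 (0.85), Timp1 (0.85), Gfod1 (0.84), Lcn2 (0.84), Uck2 (0.84), Sowahc (0.82) and Serpina3n (0.82). Lcn2, an iron-binding acute-phase protein, was higher by 1.90 at HCN 4 h and by 1.26 at KCN 4 h, but its difference at HCN 1 h was -0.56, where that of Agt was 1.43. Timp1, an inhibitor of matrix metalloproteinases, was higher by 0.83 at HCN 4 h and 0.41 at KCN 4 h. Ace stood at 0.70, Agtrap probe set 1 at 0.22, Agtrap probe set 2 at -0.18 and Agtr1a at -0.19. These group means share the contrast with controls that chose Agt.

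The second ranking used the 69 arrays, each minus the mean of its group, and so asked which genes differed with Agt between hearts of the same group. It gave Emd (0.70), Atf3 (0.62), Ramp3 (0.61), Flnc (0.59), Ptx3 (0.56), Pdxk (0.55), Clip1 (0.54) and Efhd2 (0.52), where arrays of a group can share RNA quality and dissection. Atf3, a transcription factor switched on by cell stress, was 10.23, 7.77, 10.45 and 9.39 in the KCN 2 h arrays, against 6.37, 7.13 and 6.27 in saline. Emd, the nuclear envelope protein emerin, was 8.85, 8.01, 8.77 and 8.26 in these KCN arrays, against 8.05, 8.03 and 8.02 in saline. Ptx3, a secreted pattern-recognition protein, was 5.96, 4.06, 6.66 and 4.62 in KCN, against 3.86, 3.44 and 3.86 in saline. Atf3, Emd and Ptx3 were picked for following Agt over these same arrays, so a shared order follows from that choice and is no support for a link. KCN 2 h also had the widest Agt spread of any group (SD 1.18) and so weighs most in the correlation. Replicate 2 of KCN was the lowest of its group in Agt, Atf3, Emd and Ptx3, and replicates 1 and 3 were the 2 highest in all 4. Airway transcripts split these arrays in the same way, at 3.05 and 2.88 in replicates 1 and 3 and at 12.09 and 11.79 in replicates 2 and 4, and their part in this was not tested. For the other members this correlation was 0.02 (Ace), -0.02 (Agtr1a), 0.37 (Agtrap probe set 1) and 0.11 (Agtrap probe set 2).

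**Figure D3:**
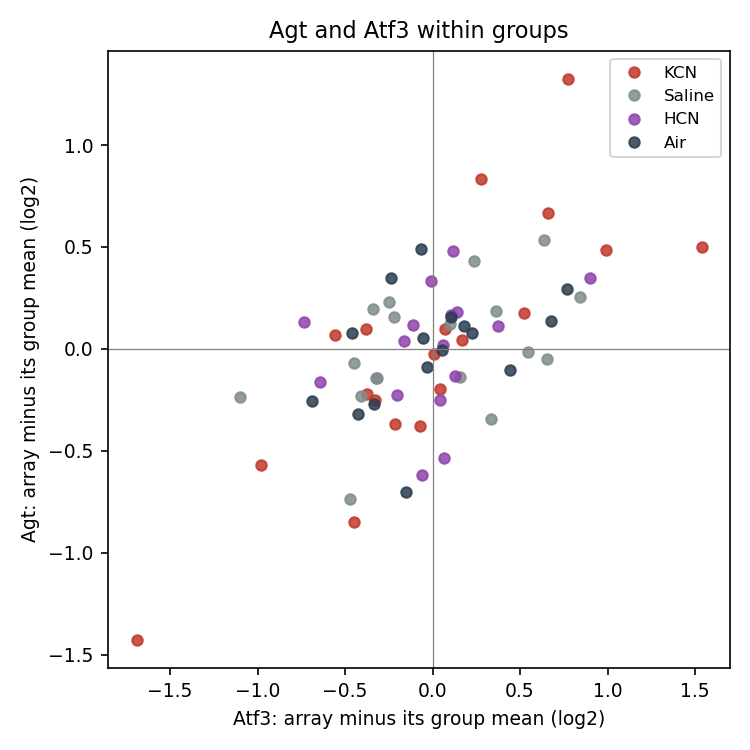
Agt against Atf3 over the 69 arrays, each value being the log2 signal of an array minus the mean of its group, coloured by exposure. The points form a loose upward band (Pearson r 0.62), with KCN arrays at both ends.

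Fat also transcribes Agt, so adipocyte markers were set beside it. The 4 measured markers had 0 members called in any comparison. Their median differences were 1.34, 1.62, 1.53, 1.65 and 1.79 at KCN 1, 2, 4, 8 and 24 h, while they were -0.02, 0.06, -0.71 and -0.26 at HCN 1, 2, 4 and 24 h. None of the 4 was below the filter. Among the 9 cyanide groups, the array of highest adipocyte level was the highest of its group in Agt in 3, the lowest in 4 and in between in 2. At KCN 24 h, for example, replicate 1 was the highest in both (7.84 and 5.64), and at KCN 2 h replicate 2 was the highest in adipocyte level, 7.91, and the lowest in Agt, 5.15. With the adipocyte level as a covariate the Agt difference ran from 0.71 at KCN 24 h to 1.92 at KCN 8 h after KCN, and from 1.42 at HCN 1 h to 2.55 at HCN 4 h after HCN. Whether fat contributed to the Agt signal was not tested beyond this.

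Airway transcripts were high in all 4 KCN 1 h arrays (11.11 to 11.56) and low in their saline controls (2.71 to 2.98), and the KCN 4 h arrays (8.95 to 12.23) stood as far from theirs (2.92 to 3.13). Most other groups were mixed. Of 4 measured lung epithelium markers 2 were called higher at KCN 1 h, where 1.57% of all probe sets were, and none elsewhere. Their median differences were 5.99 at KCN 1 h, 3.06 at KCN 2 h and 5.22 at KCN 4 h. At KCN 1 h and 4 h cyanide and airway level cannot be told apart. In arrays with an airway level under 6, a limit chosen after seeing the data, Agt read 7.91 and 7.06 in 2 KCN 2 h arrays, against 5.01 to 5.31 in 3 saline arrays, a difference of 2.33 where all arrays gave 1.43. It was 6.81 in 1 such KCN 8 h array, against 4.74 and 5.40 in saline, 7.31 in 1 HCN 1 h array against 6.0 in 1 air array, and 7.80 in 1 HCN 2 h array against 5.57 in 1 air array. At KCN 24 h it was 4.72 in 1 such array, against 4.11 to 4.63 in 3 saline arrays. KCN 1 h, KCN 4 h and HCN 24 h held no such cyanide array, and HCN 4 h held 2 (8.38 and 8.73) with none in air. Of 5 measured hepatocyte markers, of the tissue that makes most angiotensinogen, Apoc3 was below the filter. The other 4 had 3 called higher at KCN 24 h, where 6.79% of all probe sets were, and none in the other comparisons. The mean level of all 5 measured markers, Apoc3 included, ran from 3.34 to 5.88 in KCN 24 h arrays, against 2.85 to 3.44 in saline. Their part in the Agt difference at 24 h was not tested.

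The actin ratio was highest at HCN 2 h and HCN 24 h, at 1.22 ± 0.61 against 0.453 ± 0.143 in air and at 0.979 ± 0.255 against 0.386 ± 0.0447 in air. After KCN it was lower than in saline at 1 h (0.480 ± 0.0799 against 0.841 ± 0.172), 4 h (0.590 ± 0.0260 against 0.860 ± 0.310) and 24 h (0.473 ± 0.131 against 0.878 ± 0.0910). The Agt difference at HCN 2 h was 2.44 both with the ratio as a covariate and without the 2 HCN arrays of highest ratio (replicates 1 and 2), an alternative chosen after seeing the data. With the ratio as a covariate it was 1.84 at HCN 24 h, 1.17 at KCN 1 h, 1.25 at KCN 4 h and 0.39 at KCN 24 h.

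**Figure D4:**
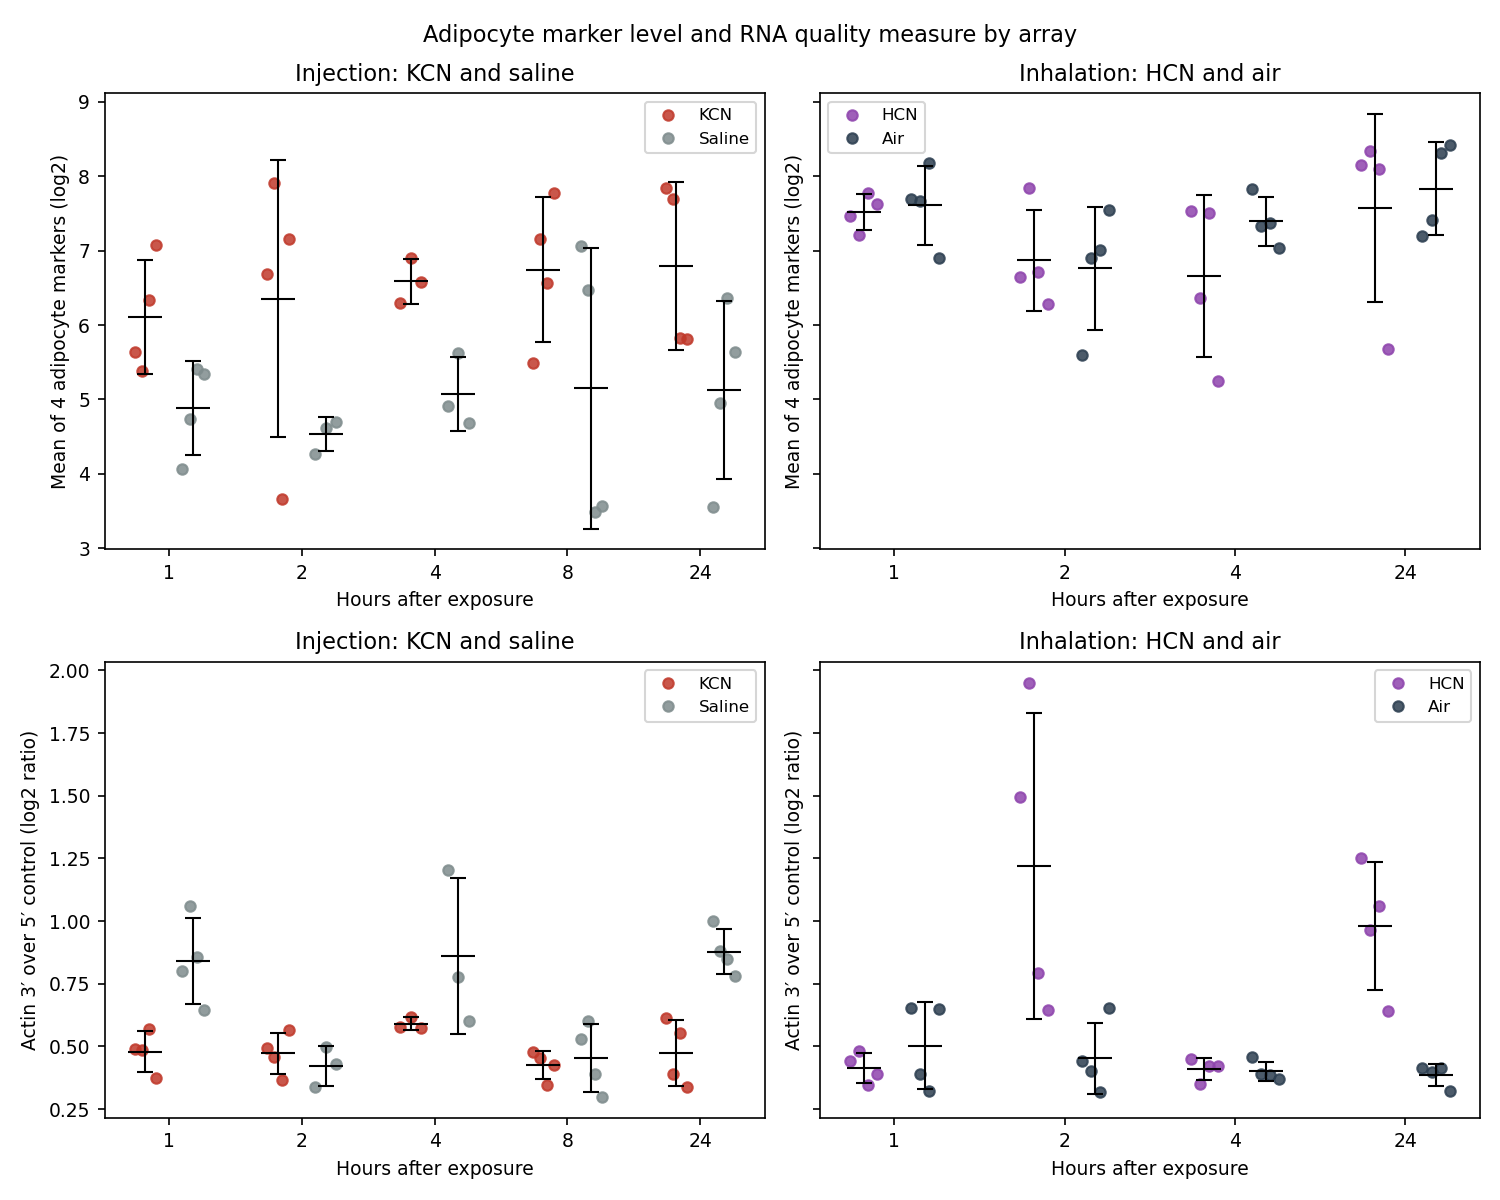
Mean log2 level of 4 adipocyte markers (top) and actin ratio, as log2 3' minus 5' signal (bottom) in each array by hours after exposure, with KCN and saline on the left and HCN and air on the right. Bars are the group mean ± SD; adipocyte levels are scattered within groups, and the highest actin ratio is 1.95 in an HCN 2 h array.

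The wider pathway was read from a list of 46 genes other than the members, of which 39 had a probe set of their own symbol and 31 passed the filter on low values. These were 12 of 18 enzymes that make or degrade angiotensins, 1 of 5 receptors, 3 of 6 genes of kinins and aldosterone and 15 of 17 genes of signalling from the type 1 receptor. The receptors Agtr1b, Agtr2, Mas1, Bdkrb1 and Bdkrb2, the aldosterone synthase Cyp11b2 and the proteases Ctsg and Prcp stayed below the filter in every group. Ren1, Ren2, Lnpep, Mrgprd, Grk2 and Ncf1 were among the listed genes without a probe set named by a single symbol and were not analysed here. The lists were drawn up with results of these data known, and each called gene is read from its brightest probe set.

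Some pathway genes called at 24 h are described here singly, Thop1 among them after both routes, and nothing is read from them about the pathway. The share of the 31 genes called was near that of all probe sets, at 16.1% against 11.9% at KCN 24 h and 16.1% against 14.3% at HCN 24 h. After KCN, Thop1, the thimet oligopeptidase that turns angiotensin I into angiotensin-(1-7), averaged 4.39 ± 0.20 in KCN hearts and 3.46 ± 0.15 in saline hearts and rose by 0.93 ± 0.20 (SE; adjusted p = 0.00129). The prolyl endopeptidase Prep, which can make the same peptide, rose by 0.50 ± 0.12 (7.07 in KCN and 6.57 in saline, adjusted p = 0.00506), and Rnpep, the aminopeptidase B, by 0.49 ± 0.15 (6.15 in KCN and 5.66 in saline, adjusted p = 0.0223). The saline level of Thop1 lay near the filter (3.23). Thop1 and Prep each have 2 probe sets, of which only the brighter is given here. After HCN, Thop1 averaged 4.50 ± 0.17 in HCN hearts and 5.19 ± 0.19 in air hearts and fell by 0.69 on the log2 scale (adjusted p = 0.0135). Mme, the neprilysin that degrades angiotensin I and natriuretic peptides, fell by 0.49 (3.74 in HCN and 4.22 in air, adjusted p = 0.0392), and the lysosomal protease Ctsd by 0.42 (10.69 in HCN and 11.11 in air, adjusted p = 0.0102). Atp6ap2, the prorenin receptor and a subunit of the vacuolar proton pump, rose by 0.36 ± 0.09 (9.69 in HCN and 9.34 in air, adjusted p = 0.00355). Atp6ap2 has 3 probe sets, of which only the brightest is given here. The actin ratio was 0.979 in HCN and 0.386 in air at this time, and Thop1, Mme, Ctsd and Atp6ap2 all lost their HCN 24 h calls with it as a covariate. In KCN and saline hearts the ratio was 0.473 and 0.878. Prep lost its KCN 24 h call in the same fit, while Thop1 and Rnpep kept theirs.

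The difference between the routes at 24 h was itself tested, as the HCN difference minus the KCN difference. It was -1.62 ± 0.29 for Thop1 (adjusted p = 3.13e-05), -0.79 ± 0.24 for Mme (adjusted p = 0.0134), -0.76 ± 0.18 for Prep (adjusted p = 0.00125), -0.67 ± 0.17 for Ctsd (adjusted p = 0.00288) and -0.66 ± 0.21 for Rnpep (adjusted p = 0.0193). It was positive for Atp6ap2 (0.56 ± 0.13, adjusted p = 0.00101) and for Cybb, the catalytic subunit of the phagocyte NADPH oxidase (0.95 ± 0.30, adjusted p = 0.0196), although the other probe sets of Cybb had a median of -0.34. In all, 2 of 31 were higher and 5 lower in this test, 22.6%, where 18.8% of all probe sets were called. At 2 h 0 were higher and 2 lower, Thop1 and Dpp3, where 5.73% of all probe sets were called. At 24 h the actin ratio moved in the same comparison, up in HCN against air and down in KCN against saline. At 2 h it was 1.22 in HCN against 0.453 in air, and 0.472 in KCN against 0.422 in saline.

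At HCN 2 h 2 of the 31 rose and 7 fell, 29.0% where 25.3% of all probe sets were called, with a median difference of 0.05 against -0.04 over all probe sets. Among the enzymes Thop1 fell by 0.92 (4.46 in HCN and 5.38 in air, adjusted p = 0.000523), Dpp3, a dipeptidyl peptidase that degrades angiotensin II, by 0.73 (5.72 in HCN and 6.45 in air, adjusted p = 0.000622), Ctsd by 0.54 (adjusted p = 0.000501) and Mme by 0.49 (adjusted p = 0.0258). Klk1, the tissue kallikrein that releases kinins, rose by 0.38 ± 0.11 (adjusted p = 0.0105). Klk1 was read near the filter, with a mean of 3.79 over all arrays, and only the brightest of its 3 probe sets is given here. In receptor signalling Arrb2, a beta-arrestin that uncouples the receptor, fell by 0.82 (5.18 in HCN and 6.0 in air, adjusted p = 0.000827), Rgs4 by 0.76 (6.79 in HCN and 7.55 in air, adjusted p = 0.00243) and the G protein subunit Gna11 by 0.19 (adjusted p = 0.0315). Rgs5, which like Rgs4 switches off Gq proteins, rose by 0.21 ± 0.08 (adjusted p = 0.0384). The other probe set of Arrb2 differed by 0.04 and the other sets of Rgs5 had a median of -0.39, in the opposite direction.

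Without HCN 2 h replicate 2, the array of highest actin ratio (1.95), the difference of Ctsd was -0.29 and that of Dpp3 was -0.44. Thop1, Arrb2, Rgs4, Ctsd and Dpp3 kept their call in all 8 fits that left out 1 array, while Rgs5, Mme, Gna11 and Klk1 lost their call in 5, 4, 3 and 2 of 8 fits. Of the 9 calls at HCN 2 h, 1 remained without the 2 HCN arrays of highest actin ratio, that of Arrb2 (-0.95, adjusted p = 0.00379), while Thop1 stood at -0.36 (adjusted p = 0.285). In that fit 12.2% of all probe sets were called. With the actin ratio as a covariate 1 of the 14 calls at HCN 2 h and 24 h remained, again that of Arrb2 (-0.78, adjusted p = 0.0254).

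At HCN 24 h 2 of 31 rose and 3 fell (median 0.03, against 0.04 over all probe sets). Besides the genes above, Rgs5 rose by 0.22 ± 0.08 (adjusted p = 0.0455), with a median of -0.77 on its other sets. Atp6ap2 passed at HCN 24 h whichever array was left out, while Rgs5, Mme, Thop1 and Ctsd lost their call in 6, 5, 2 and 1 of 8 fits, each of them without HCN 24 h replicate 2. At KCN 24 h 5 rose and 0 fell (median 0.20, against 0.01 over all probe sets), among them Plcb3, a phospholipase C activated by the receptor (0.61 ± 0.14, adjusted p = 0.00143), and the beta-arrestin Arrb1 (0.49 ± 0.17, adjusted p = 0.0441). Thop1, Prep and Plcb3 passed at KCN 24 h whichever of the 8 arrays was left out, while Arrb1 passed in 1 of the 8 fits and Rnpep in 4. With the actin ratio as a covariate Prep and Arrb1 lost their KCN 24 h calls, while Thop1, Rnpep and Plcb3 kept theirs.

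At the earlier KCN times few pathway genes passed. At 1 h Gnaq, the G protein subunit through which the type 1 receptor signals, rose by 0.42 ± 0.12 (7.53 in KCN and 7.11 in saline, adjusted p = 0.0292), and Rgs5 fell by 0.26 (adjusted p = 0.0366), 6.45% of 31 against 4.09% of all probe sets. The other sets of Rgs5 had a median of 0.04. At 2 h Rgs2, an inhibitor of Gq signalling that angiotensin II induces, rose by 0.84 ± 0.26 (9.47 in KCN and 8.63 in saline, adjusted p = 0.0348), and Rgs4 fell by 0.71 (7.15 in KCN and 7.86 in saline, adjusted p = 0.0260), 6.45% against 6.59%. Rgs2 lost its call whichever array was left out (adjusted p up to 0.150), and Gnaq, Rgs5 and Rgs4 in 5 of 8, 6 of 8 and 4 of 7 fits. Gnaq has 7 probe sets and Rgs2 and Rgs4 have 3 each, of which only the brightest is given here. At HCN 1 h, HCN 4 h, KCN 4 h and KCN 8 h limma called 0 of the 31, with 5, 5, 6 and 3 at an unadjusted p under 0.05, while 2.68%, 7.35%, 2.26% and 0.336% of all probe sets were called. At HCN 4 h, where the Agt difference was largest, the median of the 31 genes was -0.02, against -0.03 over all probe sets.

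Over all times, 10 of the 31 were called at least once after HCN, where 38.4% of all probe sets were, and 9 after KCN, where 22% were. By both routes 3 were called, Rgs4 lower in both and Thop1 and Rgs5 in opposite directions, and 15 by neither. The 15 included Enpep, the aminopeptidase that degrades angiotensin II, the mineralocorticoid receptor Nr3c2, the chymases Cma1 and Mcpt4, and the oxidase Nox4. Cma1 and Mcpt4 were read near the filter, with highest group means of 3.76 and 3.77, so little can be read from their missing calls.

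**Figure D5:**
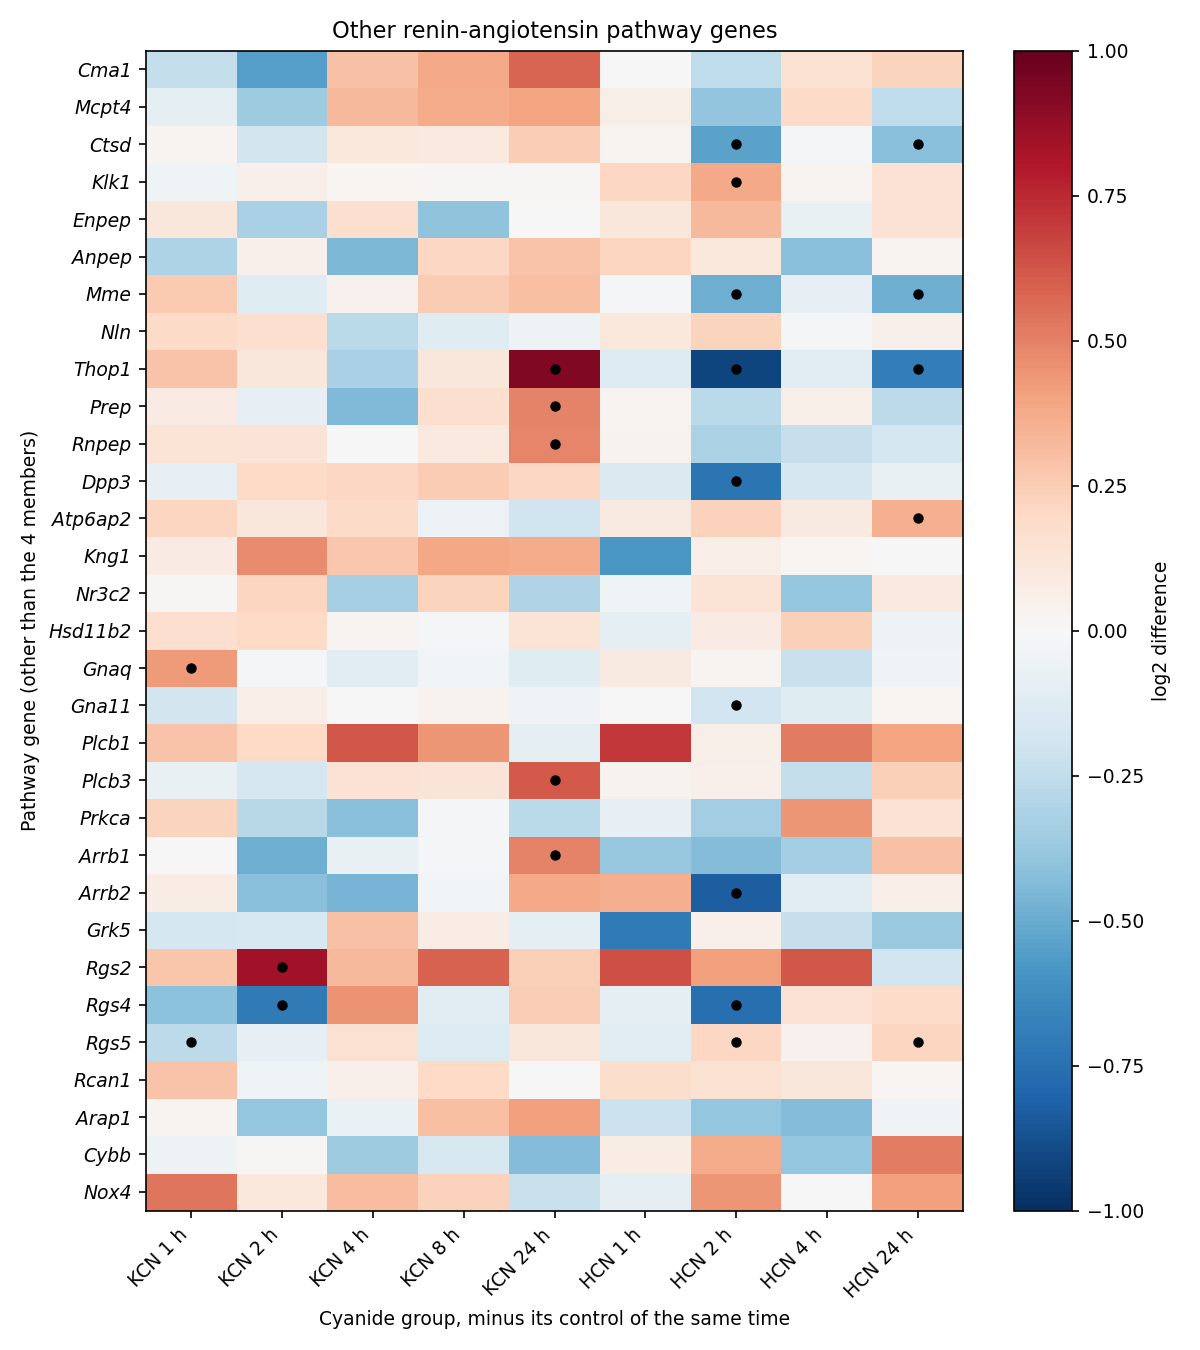
Log2 difference (colour, -1 to 1) of the 31 tested pathway genes other than the members in each cyanide group against its control, with black dots where limma called the gene at an adjusted p of 0.05. Dots stand in the KCN 24 h, HCN 2 h and HCN 24 h columns for 5, 9 and 5 genes, and the KCN 4 h, KCN 8 h, HCN 1 h and HCN 4 h columns have 0.

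Glucocorticoids are known to induce Agt transcription, and 12 of 13 listed glucocorticoid-responsive genes were measured. Of these, 3 rose and 2 fell at HCN 1 h, 7 rose at HCN 2 h, 11 rose at HCN 4 h and 0 passed at HCN 24 h, with median differences of 0.22, 0.83, 1.21 and 0.29. After KCN 1 rose at 1 h, 6 at 2 h and 0 at 4, 8 and 24 h, and 0 fell, with medians of 0.10, 0.60, 0.34, -0.11 and 0.14. Of all probe sets 1.38%, 8.79%, 2.87% and 5.08% were called higher at HCN 1, 2, 4 and 24 h, and 2.68% in either direction at HCN 1 h. At KCN 1, 2, 4, 8 and 24 h 1.57%, 3.29%, 1.21%, 0.138% and 6.79% were called higher. Medians over all probe sets lay between -0.04 and 0.04. Fkbp5, an immunophilin that dampens the glucocorticoid receptor, fell by 1.10 at HCN 1 h (adjusted p = 0.0185) and rose by 1.76 ± 0.29 at HCN 4 h (adjusted p = 2.0e-05). Whether glucocorticoids had a part in the Agt difference was not tested.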

How the data were processed

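Hearts of 18 groups were measured on 69 arrays, grouped by the sample labels. The authors deposited log2 signals per probe set. The submitters' processing notes name MAS5 without a version or a role, and the sources used here give no further steps. Probe sets were named through the platform annotation: of 45141, 28898 have 1 symbol, 551 several and 15692 none, and 104 controls were left out of tests. With R 4.3.3, limma 3.58.1 and data.table version 1.17.8, 1 linear model of 18 group means (51 residual degrees of freedom, intensity trend) was fitted to the 26773 probe sets with a group mean above 3.23. Calls used an adjusted p of 0.05 (Benjamini-Hochberg over all of them). The procedure was tested on simulated data.

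The members and all lists were chosen with earlier results of these data known. Named were the members, each pathway gene called, the 8 genes most like Agt by each of 2 measures and at most 4 values of glucocorticoid-responsive genes. For genes with several probe sets the brightest leads. Correlations between arrays lay between 0.968 and 0.995, and 0 pairs were identical. Deviations of arrays with the same replicate number correlated at -0.142 to 0.318, and in 0 of 9 comparisons did every pair exceed 0.1, so the numbers were not taken as pairs. Alternatives changed the normalization, the filter, the covariates, the samples fitted and the probe set rule, and left out each array. The number of arrays limits the precision.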

Additional observations from a re-analysis of the deposited data

Results flagged for a closer look

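In 5 of 75 combinations of a member probe set and a group of 4 arrays, 1 array stood far from the others by Dixon's criterion, which chance alone gives in about 5% of groups. For Agt these were KCN 8 h replicate 3 (6.34, against 6.81 to 6.88 in the others) and KCN 24 h replicate 1 (5.64, against 4.72 to 4.78). For Ace they were HCN 1 h replicate 2 (4.52, against 4.11 to 4.16) and saline 1 h replicate 3 (4.16, against 3.75 to 3.81). For Agtr1a it was air 1 h replicate 3 (7.28, against 7.67 to 7.73).

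The HCN difference and the KCN difference were unlike for 7 pathway genes at 24 h and 2 at 2 h by limma's test of the difference itself. At 2 h the HCN minus KCN value was -1.03 ± 0.30 for Thop1 (adjusted p = 0.0291) and -0.93 ± 0.24 for Dpp3 (adjusted p = 0.0141), 6.45% of 31 genes where 5.73% of all probe sets were called. At 24 h the values were -1.62 for Thop1, -0.79 for Mme, -0.76 for Prep, -0.67 for Ctsd, -0.66 for Rnpep, 0.56 for Atp6ap2 and 0.95 for Cybb. For Agtrap probe set 1 at 24 h the HCN minus KCN value was -0.71, with HCN arrays on average below air and KCN arrays above saline, and this difference was not tested because the contrast chose the member.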

How the results depend on the processing

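The Agt difference stayed positive in every comparison under all alternatives run. Leaving out single arrays gave 1.32 to 1.61, 1.96 to 2.39, 2.53 to 2.75 and 1.53 to 1.74 at HCN 1, 2, 4 and 24 h, and 1.01 to 1.57, 0.99 to 1.90, 1.09 to 1.62, 1.497 to 1.92 and 0.30 to 0.61 at KCN 1, 2, 4, 8 and 24 h. The lowest value at KCN 24 h came without KCN 24 h replicate 1. Over the other alternatives, 2 of them chosen after seeing the data, Agt ran from 1.31 (HCN 1 h) to 2.67 (HCN 4 h) after HCN and from 0.35 (KCN 24 h) to 2.33 (KCN 2 h) after KCN. Of these bounds 1.31, 0.35 and 2.33 come from the few arrays with an airway level under 6. They rest on 1 HCN array against 1 air array, 1 KCN array against 3 saline arrays and 2 KCN arrays against 3 saline arrays. Agt in control groups over time stayed above the threshold, with adjusted p from 0.151 to 0.448 in saline and 0.324 to 0.570 in air without single arrays (limma). Of 31 pathway genes, the number called after HCN was 10, and 3 once the actin ratio entered as a covariate, 6 with only the 2 groups compared and 9 to 11 without single arrays. After KCN it was 9, and 5 with the airway level as a covariate, 5 with the mean of all probe sets of a gene and 7 to 10 without single arrays. With no filter on low values 10 of the 14 HCN calls and 6 of the 9 KCN calls remained. The replicate block gave 12 genes after HCN and 7 after KCN, and for Agt 1.56 at KCN 2 h, with adjusted p = 0.109 over time in saline and 0.162 in air. Of the 23 pathway calls 9 held whichever array was left out. The route differences were not refitted under alternatives. The causes of these changes were not tested. Probe sets near the filter, Ace among them, carry little signal over background.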
